A study of Arabidopsis thaliana with 2 samples.

Results

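The genes AMY1, SAG29, cwINV6 and QQS, 4 genes linked to starch and sugars, were described in whole seedlings of Arabidopsis thaliana. They were chosen by name because their signals differed between the arrays of this study, so their ratios and ranks are a description and were not tested. All 4 were found by symbol, each on 1 probe set assigned to that gene alone, among 13356 genes with a probe set of their own. The 2 genotypes were wild-type Columbia-0 and OE-N6, a transgenic line in the same background made to overexpress NHRGP (AT4G16790). The promoter driving the transgene was not stated in the labels, and OE-N6 is 1 named line. Seedlings of both genotypes were 2 weeks old and had been kept at 22 °C under a cycle of 16 h light and 8 h dark. Their diluted MS medium held 2% sucrose, so sugar was supplied to both. There was 1 ATH1 chip per genotype, an Affymetrix array that reads each transcript with a set of short probes. There is therefore no spread between replicates, and no p-value or SD between samples is given. In whole seedlings, fewer cells expressing a gene and less RNA per cell cannot be told apart.

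Leaf starch is made by day and broken down at night, and its breakdown products feed sucrose synthesis and export. Invertases split sucrose into glucose and fructose, SWEET proteins let sugars cross membranes down their gradient, and amylases cut starch chains. AMY1 encodes an alpha-amylase, one known to be secreted and to accumulate in ageing or stressed leaves rather than to act in nightly starch breakdown in the chloroplast. SAG29, also called SWEET15, encodes a SWEET sugar transporter known from senescing leaves and developing seeds. The protein of cwINV6 belongs to the cell wall invertase family by sequence but is known to act on fructans, which its RefSeq synonym, a fructan exohydrolase, records. QQS (qua-quine starch) is an orphan gene with no recognisable relative in other species, and plants with less of it are known to hold more leaf starch.

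The values below are signal intensity in array units on a linear scale, already scaled by the authors so that both arrays have the same trimmed mean (500). A floor of 112 was set at the 40th percentile of all signals, lower signals were put at the floor for the ratios, and a ratio with 1 signal under the floor is a bound ("at least"). The background for counts was the 5862 genes with a mean signal of 192 or more, the median of all probe sets other than controls. All ratios are OE-N6 over wild type.

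Of the 4 genes, AMY1, SAG29 and cwINV6 had the higher signal on the OE-N6 array and QQS the higher signal on the wild-type array. AMY1 was 5.05-fold higher and SAG29 3.69-fold higher in OE-N6, with both signals above the floor. The cwINV6 signal was at least 2.59-fold higher in OE-N6, since the wild-type value was under the floor. For QQS the OE-N6 signal was under the floor, and the transcript was at least 5.02-fold lower there. Among all genes that passed the filter, 0.546% reached 2-fold in the higher direction and 0.495% in the lower one. Nothing is read from these shares for the 4 genes, which were picked from that same comparison.

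**Figure D1:**
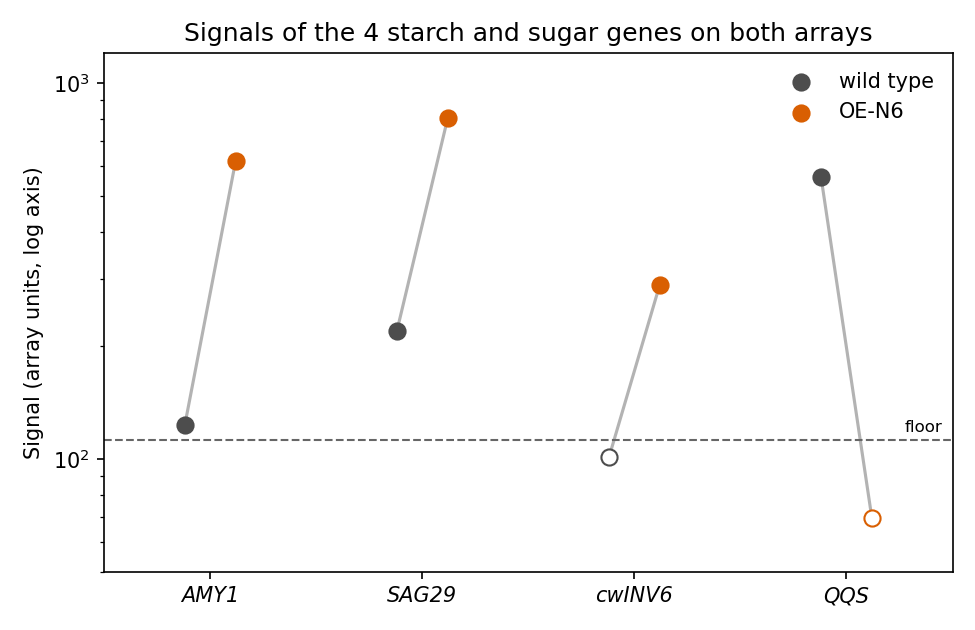
Signal of each of the 4 genes in wild type (grey) and OE-N6 (orange), 1 array each, on a log axis in array units. The dashed line is the floor of 112 and open circles lie under it, as for cwINV6 in wild type (101) and QQS in OE-N6 (69.4).

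AMY1 (AT4G25000, probe set 254101_at) had a signal of 123 in wild type and 620 in OE-N6. The wild-type value lay just above the floor, and 47.5% of the 13356 genes had a lower wild-type signal, against 81.3% with a lower signal in OE-N6. These positions describe brightness on the chip, which also depends on the probes, and not transcript numbers. The log2 ratio of 2.34 came second from the top among the 5857 genes that passed the filter and were above the floor on both arrays. Because the wild-type signal was dim, the floor decides how much of this difference is counted. With the floor raised to the median of all values (191), the wild-type signal was raised as well and the difference became at least 3.25-fold. The genes that passed were split by mean signal into 10 groups, and AMY1 fell in one of 586 genes (352 to 428). There the SD across genes of the log2 ratio was 0.33, and no other gene had a ratio as high as that of AMY1. This SD holds no variation between plants, and AMY1 was chosen for its ratio, so the SD does not measure how unusual AMY1 is.

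SAG29 (AT5G13170, probe set 245982_at) had a signal of 219 in wild type and 806 in OE-N6. Both values lay above the floor, and its difference was the same 3.69-fold with every floor tried. In wild type 58.9% of genes had a lower signal, and in OE-N6 85.7%. Among the same 5857 genes, 3 had a log2 ratio above its 1.88. In its signal group of 586 genes, with means from 428 to 527, 3 genes reached 2-fold upward and 5 downward, and SAG29 had the highest ratio of the group.

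cwINV6 (AT5G11920, probe set 250302_at) had a signal of 101 in wild type and 291 in OE-N6. Its mean of 196 was only just above the filter of 192. Like AMY1, it passed the filter through its OE-N6 signal, and QQS passed through its wild-type signal, since the other signal of each was under 192. The log2 ratio was at least 1.38, or 1.53 with the deposited signals as they stand, a 2.88-fold difference. Of the same 5857 genes, 8 had a higher ratio than the bound of cwINV6. That count leaves out genes with 1 signal under the floor, such as AT1G74010, with a bound of 1.44. cwINV6 lay in the dimmest of the 10 signal groups, where 2-fold was reached by 7 of 587 genes downward and 2 upward. The 2 upward were cwINV6 and a gene with a ratio at least as high. With the floor at the median signal its bound was at least 1.52-fold, under the 2-fold line. Of the 4 genes, cwINV6 is the one whose count at 2-fold depended on the floor.

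QQS (AT3G30720, probe set 256940_at) was the 1 gene of the 4 with the lower signal in OE-N6. Its signal was 562 in wild type, higher than that of 79.2% of genes, and 69.4 in OE-N6, under the floor. The log2 ratio was at most -2.33, and none of the same 5857 genes had a lower one. Taken from the deposited signals without a floor the difference was 8.09-fold, but a signal this dim has no reliable level, and the lower bound of 5.02-fold is the firmer value. With the floor at the median signal the bound was at least 2.94-fold. QQS is known for transcript levels that differ between plants and growth conditions, and with 1 array per genotype that variation was not measured here.

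**Figure D2:**
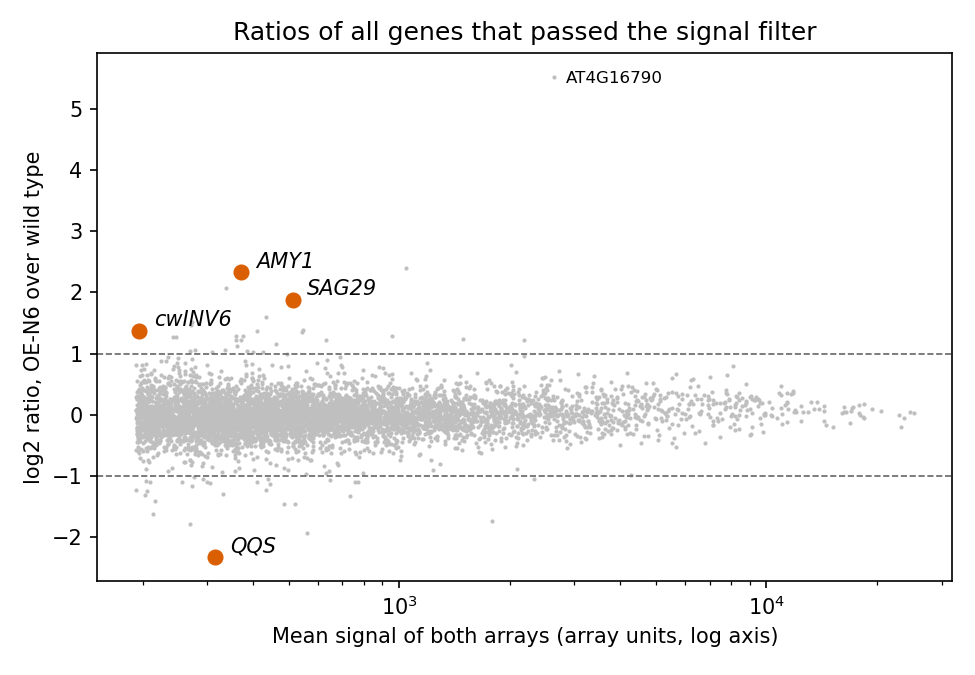
log2 ratio of OE-N6 over wild type against mean signal (log axis) for the 5862 genes that passed the filter (grey), with AMY1, SAG29, cwINV6 and QQS in orange. The dashed lines mark 2-fold, and the overexpressed AT4G16790 lies at the top with a log2 ratio of at least 5.53.

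On the same arrays AT4G16790, the overexpressed gene, had a signal of 91.1 in wild type and 5171 in OE-N6, at least 46.2-fold higher, in the direction of the labels. Over the genes that passed the filter the median log2 ratio was -0.02, and 95.2% lay within 1.5-fold. In 41 genes read by several probe sets, the log2 ratios of the brightest pair lay a median of 0.19 apart and at most 0.73. This spread is within the same RNA and holds no variation between plants. None of the 4 genes has a further probe set named as its own to compare in that way. As a sign of RNA quality, the ratio of 3' to 5' or central control signal was taken in actin, GAPDH and ubiquitin. It was larger in OE-N6 for 9 of 10 pairs, with log2 differences from -0.20 to 0.39. Several pairs share a 3' probe set, so the 10 are not separate observations. The part of these differences in the ratios of the 4 genes was not tested.

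The other 3 genes of starch breakdown with a probe set of their own had log2 ratios below 0. Among all genes that passed the filter, 3120 of 5862 were also below 0, so nothing is read from the sign. PWD (AT5G26570), the phosphoglucan water dikinase that prepares the starch granule for breakdown, had signals of 4669 and 3298, a log2 ratio of -0.50. DPE1, the disproportionating enzyme that rearranges short maltooligosaccharides in the chloroplast, had 1298 and 1142, a log2 ratio of -0.19. A related locus, AT4G24450, with the RefSeq synonym ATGWD2, had 203 and 123, a log2 ratio of -0.72, with a mean signal under the filter. None of the 3 reached 2-fold, beside 0.546% of all genes that passed upward and 0.495% downward, so nothing is read from this. The other 13 loci of this list and all 9 beta-amylases had no probe set named as their own. The alpha-amylases AMY2 and AMY3 were likewise not analysed here, so AMY1 was the 1 amylase measured.

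In starch synthesis, SBE2.2, a branching enzyme, was the 1 of 5 measured genes that passed the filter. It had signals of 785 and 849, a log2 ratio of 0.11. APL3, a large subunit of ADP-glucose pyrophosphorylase known to respond to sugar, had 167 and 185, a log2 ratio of 0.15 with a mean under the filter. Of the other 3 list members, AT5G39790 and AT3G55760 had log2 ratios of -0.49 and -0.31, and APL4 was under the floor on both arrays.

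The SWEET family was the best covered, with 16 of 17 genes on a probe set of their own. Of the 6 that passed the filter, SAG29, which was chosen for its ratio, was the 1 member at 2-fold. Over all genes that passed, 0.546% reached it upward and 0.495% downward, so nothing is read from this count. The other 5 members that passed the filter had log2 ratios from -0.17 to 0.30, with a median of -0.03 beside -0.02 over all genes. SWEET11, which loads sucrose towards the phloem, had bright and nearly equal signals of 6269 and 6146. SWEET17 and SWEET16, fructose and sugar carriers of the vacuole membrane, had log2 ratios of 0.14 and -0.17. SWEET1, a glucose carrier, had -0.08 and SWEET2, another vacuolar carrier, 0.30. SWEET10 had 191 in wild type and 76.0 in OE-N6, at least 1.70-fold lower, with a mean under the filter. The other 9, SWEET3, SWEET4, AtVEX1 (SWEET5), SWEET6, SWEET7, SWEET8, SWEET9, SWEET13 and SWEET14, were under the floor on both arrays and give no ratio. Among them is SWEET14, whose gene lies beside AMY1 on the chromosome.

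Apart from SAG29 and cwINV6, no sugar transporter, invertase family member or sucrose enzyme that passed the filter reached 2-fold. Few were measured, and only 0.546% of all genes that passed reached it upward and 0.495% downward, so nothing is read from this. TMT1 and TMT2, which move sugars into the vacuole, had log2 ratios of 0.24 and -0.21, and SFP1, of the monosaccharide transporter family, had 0.17. AT5G61520, of the same list, had -0.37. SFP2 had 132 and 85.6, the latter under the floor, and the other 4 measured members, TMT3 and the loci AT1G34580, AT5G26250 and AT3G19940, were under the floor on both arrays and give no ratio. In the sucrose lists, ATSPS4F, a sucrose phosphate synthase, had signals of 2028 and 1316, a log2 ratio of -0.62, and AT2G35840 had 784 and 918, a ratio of 0.23, while AT3G54270 was under the floor on both arrays. AT1G62660, of the invertase list, had 1283 and 1752, a log2 ratio of 0.45, and was the 1 further invertase locus measured. The other 5 genes of the cell wall invertase family had no probe set named as their own.

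Over all 13 starch and sugar lists, 39 of 152 loci had a probe set of their own and 18 passed the filter. At 2-fold, 3 were higher, namely AMY1, SAG29 and cwINV6, and 0 were lower, beside 0.546% and 0.495% of all genes that passed. These 3 were chosen for their ratios, so nothing is read from the count. QQS is in none of these lists. Without those 3 genes, 7 of the other 15 had a log2 ratio above 0 and 8 below, from -0.62 to 0.45, with a median of -0.03. In 5 lists no member had a probe set named as its own. Among them were the sucrose transporters, the genes induced by dark and sugar starvation, and the NF-YC factors listed as partners of QQS.

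**Figure D3:**
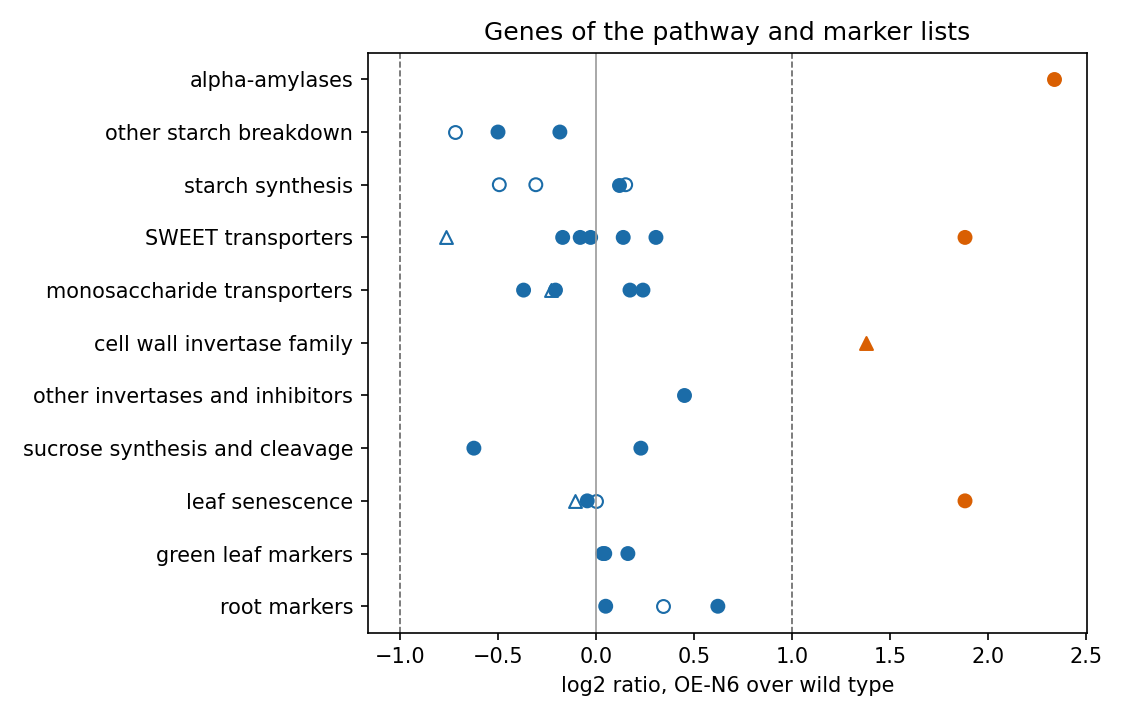
log2 ratio of OE-N6 over wild type for each gene of the lists, with AMY1, SAG29 and cwINV6 in orange and all others in blue. Filled symbols passed the signal filter and open ones did not, triangles are bounds, genes under the floor on both arrays are left out, and dashed lines mark 2-fold; every blue symbol lies inside those lines. SAG29 appears in the SWEET and the leaf senescence rows.

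Both AMY1 and SAG29 are known from ageing leaves, and besides SAG29 the senescence list had 3 measured genes. WRKY6, a transcription factor of senescence and defence, had signals of 361 and 350, a log2 ratio of -0.05. SAG101 had 158 on both arrays, and WRKY53, a regulator of leaf ageing, had 121 and 92.0, the latter under the floor, which leaves only a bound. The other 11 genes of the senescence list and all abscisic acid response genes had no probe set named as their own.

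The green leaf markers and PYK10, an abundant root beta-glucosidase, were bright on both arrays, and the root hair expansins were dim. Of the green leaf markers 3 of 8 were measured, with summed signals of 41022 in wild type and 43088 in OE-N6, and RCA, PRK and PSAN had log2 ratios of 0.03, 0.04 and 0.16. Of the root markers 3 of 7 were measured, with summed signals of 16313 and 16998, nearly all of it from PYK10 (15970 and 16513). PYK10 had a log2 ratio of 0.05. EXPA18 had signals of 188 and 290, a log2 ratio of 0.62, and EXPA7 had 155 and 196, a ratio of 0.34 with a mean under the filter. No seed reserve or flower marker had a probe set named as its own. The part of these tissues in the ratios of the 4 genes was not tested.

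Genes with the most similar pair of signals were sought over the 2 arrays, by the distance between log2 signals after the floor. Nearest to AMY1 were AT1G52060, with 130 in wild type and 546 in OE-N6 at a distance of 0.20, and EXLA1, an expansin-like gene, with 141 and 403 at 0.65. SAG29 was closest to AT4G04460, with 216 and 653 at a distance of 0.30, and to AT5G62340, with 229 and 589 at 0.46. The neighbours of cwINV6 were AT1G74010, with 92.4 and 304, and ATPMEPCRB (AT4G02330), with 75.1 and 278, both at a distance of 0.07. Their wild-type signals and that of cwINV6 were all put at the floor, so these distances come from the OE-N6 array alone. For QQS, AT1G08310 had 417 and 120 at a distance of 0.44, and AT5G17340 had 347 and 81.3 at 0.70. With 2 arrays, likeness means only a similar level and ratio. Where both genes are under the floor on 1 array, it means only a similar level on the other.

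Of the 16 protein-coding genes within 2 places of the 4 on the chromosomes, 8 had a probe set of their own. Of those, 5 were under the floor on both arrays and give no ratio. The other 3 did not reach 2-fold. Among all genes that passed the filter only 0.546% did so upward and 0.495% downward, so nothing is read from this. ATGP4, beside AMY1, had 978 and 956, a log2 ratio of -0.03. AT5G11910 and AT5G11900, beside cwINV6, had -0.12 and -0.10. No neighbour of SAG29 had a probe set named as its own, and the 1 measured neighbour of QQS, AT3G30730, was under the floor on both arrays.

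The direction of all 4 differences was kept under median centring, quantile and loess scaling. Each floor and the pseudocount can change the size of a difference but cannot reverse it. With 1 probe set per gene, the mean over probe sets and no signal filter leave the ratios as reported. SAG29 varied least, with log2 ratios from 1.85 to 1.93. AMY1 ran from 1.70 to 2.38, cwINV6 from 0.61 to 1.53 and QQS from -3.02 to -1.56. Quantile scaling gave 2.36, 1.91 and 1.39 for AMY1, SAG29 and cwINV6 and -2.31 for QQS. The widest ranges belong to the genes with a signal near or under the floor, where the floor sets the bound.

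**Figure D4:**
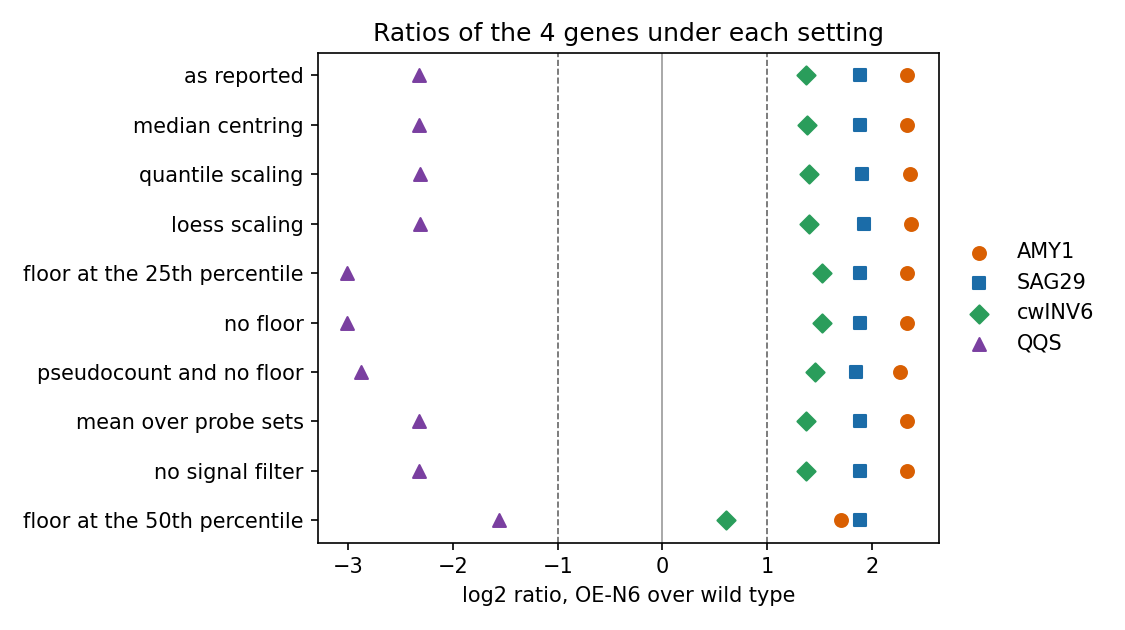
log2 ratio of OE-N6 over wild type for each of the 4 genes as reported and under 9 alternative settings, with dashed lines at 2-fold. SAG29 stays between 1.85 and 1.93, while AMY1, QQS and cwINV6 move with the floor. With the floor at the 50th percentile AMY1 lies at 1.70, and cwINV6 falls inside 2-fold (0.61).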

How the data were processed

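RNA from 1 wild-type and 1 OE-N6 sample (6 µg of total RNA each) was hybridised to ATH1 arrays, per the labels' protocols. The authors deposited 1 intensity per probe set, a linear signal, and the submitters' processing notes name MAS5 without version or settings. Both arrays have a trimmed mean of 500, so a shift common to all transcripts cannot be seen. Of 22810 probe sets, 64 are controls, 13513 have 1 gene, 503 have several and 8730 are unnamed here. Genes came from the platform annotation, and 13436 of the 13513 matched RefSeq (TAIR10.1), used for names and gene order only. The brightest probe set of a gene was used. Genes at 2-fold were counted without a test, and the procedure was tested on simulated data. The named genes were the 4 genes, all measured members of the lists, the 2 nearest genes by signal for each, and chromosome neighbours within 2 places. The 4 genes and the lists were chosen with earlier results of these data known. A promoter search was planned and not run. Calculations used Python 3.11.15, numpy 2.4.6, pandas 2.3.3, statsmodels 0.14.6 and matplotlib 3.10.9.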

Additional observations from a re-analysis of the deposited data

How the results depend on the processing

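The ratios of AMY1, SAG29 and QQS had the same direction and exceeded 2-fold under all 9 alternatives that gave them a value, and cwINV6 did so under 8. The genes were chosen on these ratios, and of the alternatives only the scalings could have changed a direction. With the floor at the 50th percentile, chosen after seeing the data, cwINV6 had a log2 ratio of 0.61, since its wild-type signal is raised further. At a filter on the 75th percentile of mean signal none of the 4 genes was kept. As reported, 32 genes reached 2-fold upward and 29 downward. They were 6 and 6 at the 75th percentile filter, where 2683 genes were left, 143 and 141 at 1.5-fold, 6 and 5 at 3-fold, and 58 and 55 over all probe sets, named or not. With the floor at the 50th percentile 26 were higher and 19 were lower. The median log2 ratio was 0.05 for the SWEET genes and 0.13 for all starch and sugar lists, and both were -0.03 without the 4 genes, a setting chosen after seeing the data. Without the signal filter both medians were 0, because many members are under the floor on both arrays. The promoter motif search was not run, because no promoter sequences were used here. No paired analysis was possible because there is only 1 array for either genotype. Signal over background limits cwINV6 and QQS, which have only bounds, and AMY1, whose wild-type signal (123) lies just above the floor (112).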
